A study of Mus musculus with 9 samples.

Results

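The genes described are 47 mouse imprinted genes, taken by symbol from a list that covers 18 imprinted domains, out of the 45808 gene symbols in the table of raw counts. All 47 had a row, and 25 of them held enough reads to be tested (edgeR's filter, a level of at least 0.833 CPM, which are counts scaled to library size, in 4 libraries and 15 reads in all). RNA was sequenced from mK4 cells, a line of mouse embryonic kidney mesenchyme, grown in medium with 10% FBS. The 4 F7 libraries came from 1 clone that carries a homozygous frameshift in Foxd2, a forkhead transcription factor gene, made by CRISPR/Cas editing. The 5 control libraries came from mK4 cells with a wildtype Foxd2 genotype that had been through the same editing with a guide that has no target. Only 1 mutant clone was sequenced, so genotype and clone cannot be told apart. The labels do not say that replicates were separate cultures, and the p-values then cover only library-to-library spread, which may be technical.

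An imprinted gene is transcribed mainly from the copy inherited from 1 parent. DNA methylation laid down in the egg or sperm at a control region marks the parental copies, and it is kept through later divisions by the maintenance methyltransferase DNMT1 and by zinc finger proteins such as ZFP57. Many imprinted genes act on fetal growth, and paternally expressed growth promoters such as Igf2 stand against maternally expressed restrainers such as Cdkn1c and Igf2r. Some are imprinted in only a few tissues, such as Ube3a in neurons. Counts per gene do not separate the parental copies, so the parental allele named for each gene below is textbook background and was not measured.

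The libraries held 6041556 to 14024859 counts in F7 and 10526591 to 16032175 in control, and F7 replicates 3 and 4, with 6041556 and 6590712, were the shallowest. Those 2 columns are headed mk3, not mk4, in the raw table, and what that marks was not tested. On the first principal component, with 65.7% of the variance, the F7 libraries lay between 35.5 and 39.9, control replicates 3 and 5 at -15.2 and -19.4 and the other controls between -40.8 and -32.5. Foxd2 RNA itself averaged 18.3 ± 3.78 CPM (SD, n = 4) in F7 and 3.73 ± 0.538 CPM (SD, n = 5) in control (log2 fold change 2.30, adjusted p = 1.93e-07 by edgeR), and counts do not show the frameshift. Of 13 markers of metanephric mesenchyme and early nephron, 10 had at least 10 reads in all, but Six2, Wt1 and Hoxd11 had none. Their summed level was 297 to 318 CPM in F7 and 491 to 605 CPM in control. Summed endothelial markers stayed at or below 0.918 CPM in F7 and 0.650 CPM in control, and macrophage and blood markers at or below 8.06 CPM in F7 and 8.26 CPM in control. The 5 stromal markers summed to 195 to 205 CPM in F7 and 160 to 188 CPM in control, without overlap, with 1 of 3 tested higher, Pdgfrb (log2 fold change 1.24), and 1 lower. Ureteric bud markers summed to 72.6 to 83.5 CPM in F7 and 75.7 to 103 CPM in control, and neuronal ones to 84.5 to 109 CPM in F7 and 86.5 to 127 CPM in control. What part these lists have in the results was not tested.

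The promoters of 4 genes of chromosome 7 are shown because their RNA moved in the results that follow: Igf2 and Snrpn had the largest falls and gains among the coding members, and Peg3 and Zim1 belong to a domain in which every member fell. Each window is 300 bases of RefSeq sequence on GRCm38.p6, from 250 bases before an annotated start to 50 after it, written 5′ to 3′ on the gene's strand. Igf2 and Snrpn have 4 annotated windows each, and the one with the most CG pairs is given. Capitals mark each CG, the pair at which imprints are methylated, and each TGCCGC or its reverse complement GCGGCA, the core bound by ZFP57.
Igf2, chr7:142658755-142659054, minus strand: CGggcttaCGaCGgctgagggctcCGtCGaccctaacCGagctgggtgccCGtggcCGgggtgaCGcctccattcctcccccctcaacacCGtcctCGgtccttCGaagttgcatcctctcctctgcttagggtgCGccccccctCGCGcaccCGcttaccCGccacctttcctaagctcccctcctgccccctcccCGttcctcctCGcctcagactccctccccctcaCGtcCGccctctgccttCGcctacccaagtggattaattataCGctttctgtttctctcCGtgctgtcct
Snrpn, chr7:60005150-60005449, minus strand: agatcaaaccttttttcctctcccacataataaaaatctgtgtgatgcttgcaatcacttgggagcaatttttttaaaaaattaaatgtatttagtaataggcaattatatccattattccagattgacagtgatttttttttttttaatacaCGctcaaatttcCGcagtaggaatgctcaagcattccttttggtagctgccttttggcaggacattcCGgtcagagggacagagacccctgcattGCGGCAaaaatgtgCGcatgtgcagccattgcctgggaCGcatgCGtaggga
Peg3, chr7:6730370-6730669, minus strand: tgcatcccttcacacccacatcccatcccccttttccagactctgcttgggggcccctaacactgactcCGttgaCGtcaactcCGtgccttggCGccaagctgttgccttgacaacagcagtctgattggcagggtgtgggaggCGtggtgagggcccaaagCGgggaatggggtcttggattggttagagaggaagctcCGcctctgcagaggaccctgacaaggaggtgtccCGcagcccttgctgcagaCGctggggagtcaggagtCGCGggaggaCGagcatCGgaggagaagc
Zim1, chr7:6696383-6696682, minus strand: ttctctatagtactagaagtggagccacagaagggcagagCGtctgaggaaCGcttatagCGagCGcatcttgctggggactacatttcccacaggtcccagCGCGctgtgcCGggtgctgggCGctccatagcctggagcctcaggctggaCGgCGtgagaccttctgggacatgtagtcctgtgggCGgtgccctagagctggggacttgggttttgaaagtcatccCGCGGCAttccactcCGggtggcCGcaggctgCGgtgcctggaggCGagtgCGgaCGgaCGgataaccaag
The Igf2 window held 24 CG pairs, a number reached by 20.0% of the 32851 windows in the RefSeq table. It was chosen for its CG count, which raises its rank, and the other Igf2 windows held 2, 7 and 14. The Snrpn window was chosen in the same way, and the other Snrpn windows held 2, 3 and 4. Snrpn had 7 in its window, Peg3 13 and Zim1 20, against a median of 7 over all windows. TGCCGC, sought on both strands, occurred in the Snrpn and Zim1 windows and not in those printed for Igf2 and Peg3, and another Igf2 window held 1. It lay in 12 of 51 windows of the 34 members with an entry (23.5%) and in 11.6% of all windows. The Peg3 window shares 263 bases with that of Usp29, which is transcribed the other way. Methylation was not measured in these samples.

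Igf2, which encodes the fetal insulin-like growth factor 2, was far lower in F7 than in control. In bulk RNA, fewer cells of a type and less RNA per cell cannot be told apart. Igf2 (ENSMUSG00000048583.16; mm10 chromosome 7, 142650766 to 142666816, minus strand) measured 8.34, 9.43, 15.1 and 11.8 CPM in F7 replicates 1 to 4, against 682, 744, 679, 602 and 614 CPM in control replicates 1 to 5. The groups were far apart, and all 4 F7 libraries kept a low but counted level of 77 to 114 reads. The fitted change was 61.7-fold lower in F7 (log2 fold change -5.95 with SE 0.15, adjusted p = 9.72e-11 by edgeR), and only 12 of the 14730 tested genes had a lower value. Per kilobase of annotated exon, the level of Igf2 was 1.95 CPM in F7 and 116 CPM in control, rank 10847 in F7 and 388 in control among 13861 tested genes with a length.

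Igf2os, a noncoding gene on the opposite strand, had 2, 1, 2 and 2 reads in F7, against 205, 180, 134, 113 and 120 reads in control (log2 fold change -5.87 with SE 0.26, adjusted p = 3.19e-09 by edgeR). It overlaps Igf2, and the labels do not say whether counting used strand, so reads of the pair cannot be told apart. It also passed the filter on low counts through the control libraries alone. H19, the maternally expressed noncoding partner that lies 72.6 kb from Igf2 (chromosome 7, 142575529 to 142578143), was almost without reads in both groups, with 2 in F7 and 6 in control. Mir675, which is cut from H19, had no read, and Mir483, within Igf2, had 0 in F7 and 4 in control. In the control cells this domain was therefore represented by Igf2 with H19 near 0, and in F7 both were low.

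The loss did not extend evenly over the flanking genes. Of 6 other genes tested within 250 kb of this domain, none rose and 3 fell: Syt8, a synaptotagmin (0.705 ± 0.210 CPM in F7 and 2.97 ± 1.38 CPM in control, SD, n = 4 and 5; log2 fold change -2.06), Ifitm10 (-0.74) and Lsp1 (-0.48). Their median log2 fold change was -0.30, and that of all 975 tested genes of chromosome 7 was -0.01. Ins2, the insulin gene next to Igf2, had no read in any library.

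Over all domains, 14 of the 25 tested genes were called at an edgeR adjusted p under 0.05, of which 5 were higher in F7 and 9 were lower. Across all 14730 tested genes 35.3% were called, 17.4% higher and 17.9% lower, so a call by itself was common in this comparison. Igf2os and Snrpn passed the filter through 1 group alone and so had to differ. Of the other 23, 12 were called. The median log2 fold change was -0.17 for the 25 genes and -0.005 for all tested genes. The median absolute log2 fold change was 0.30 for the 25 genes. It was 0.233 for the 23 without Igf2os and Snrpn, against 0.234 for all tested genes. The F7 and control libraries did not overlap in 13 of the 25 and in 11 of those 23, against 27.6% of all tested genes. Of the 25 tested imprinted genes 6 were called with a change of 2-fold or more, against 7.15% of all tested genes, and Igf2os and Snrpn are among the 6. By textbook assignment, of 14 tested paternally expressed genes 2 rose and 5 fell. Of 11 maternally expressed ones, with Ube3a and Gnas among them, 3 rose and 4 fell, so calls went both ways in each class.

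**Figure D1:**
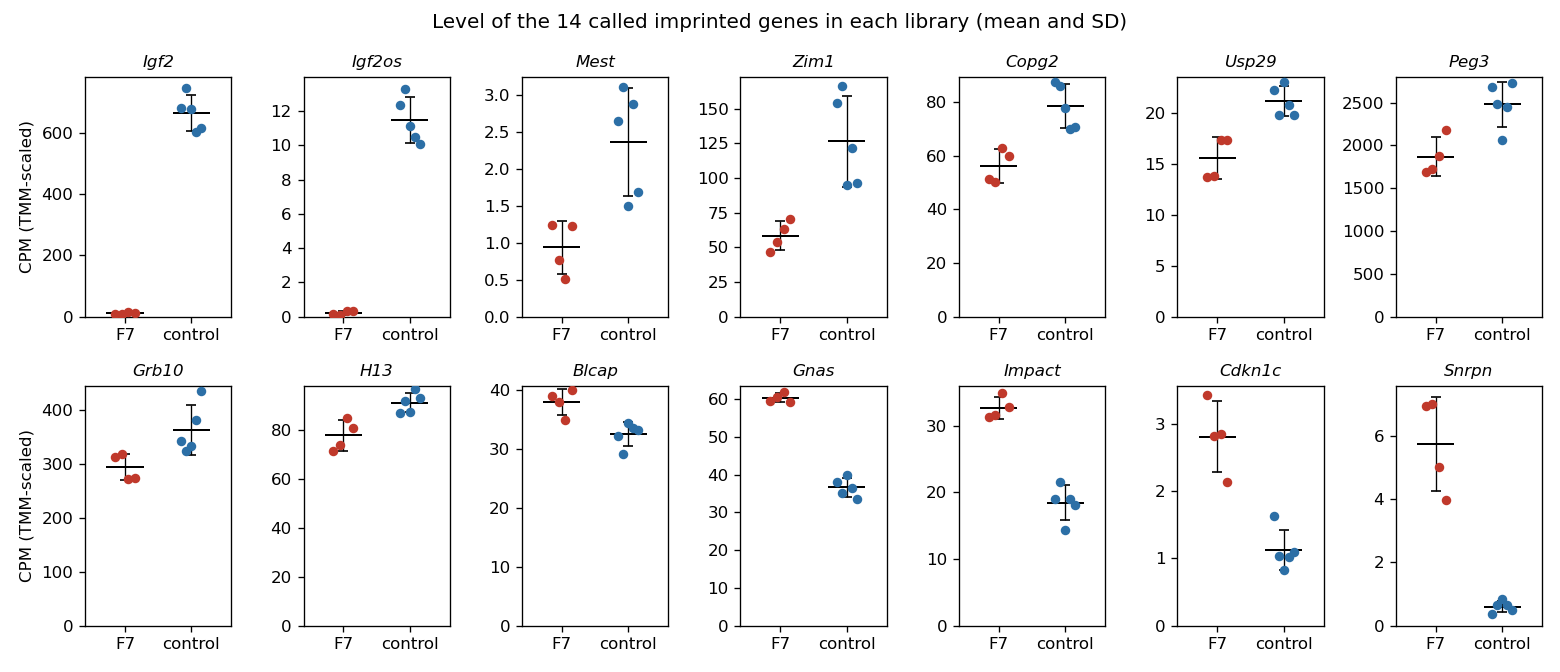
Level of the 14 called genes in each library, in TMM-scaled CPM on linear axes from 0, with F7 (red, 4 libraries) left of control (blue, 5 libraries); black lines are the mean and bars the SD. Igf2 lies at 8.34 to 15.1 CPM in F7 and 602 to 744 CPM in control, whereas for Peg3 the highest F7 library (2185 CPM) overlaps the lowest control (2069 CPM).

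**Figure D2:**
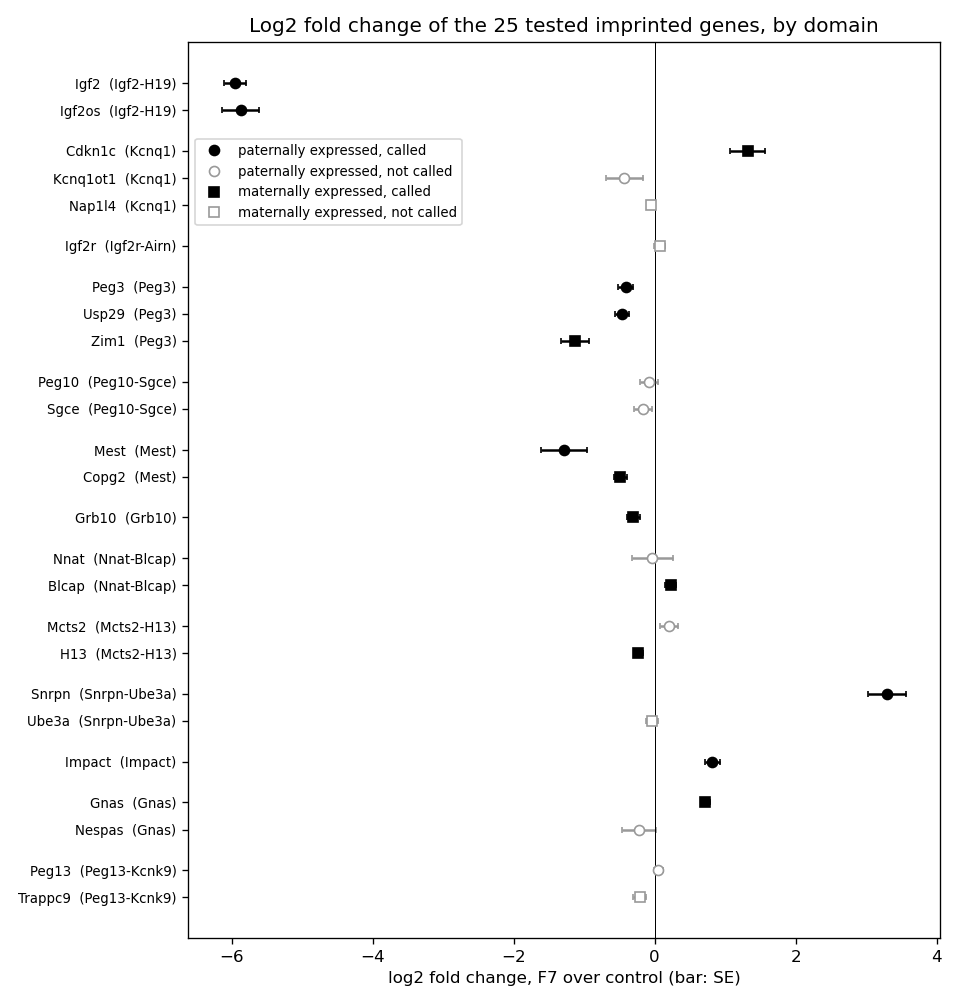
Log2 fold change of F7 over control with its SE for the 25 tested genes, grouped by domain; circles are paternally and squares maternally expressed genes by textbook assignment, and filled symbols passed an edgeR adjusted p of 0.05. Igf2 (-5.95) and Igf2os (-5.87) stand far to the left and Snrpn (3.29) far to the right of the other genes, which lie between -1.29 and 1.32.

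Snrpn, which encodes a small nuclear ribonucleoprotein subunit and is paternally expressed, had the largest rise among the 25 tested imprinted genes. Snrpn (ENSMUSG00000102252.5; chromosome 7, 59982495 to 60140219, minus strand) had 95, 82, 30 and 26 reads in F7, against 6, 9, 10, 7 and 6 reads in control. As levels these were 6.95, 7.03, 5.04 and 3.98 CPM in F7 and 0.362, 0.667, 0.830, 0.650 and 0.506 CPM in control, with no overlap. The fitted change was 9.79-fold higher in F7 (log2 fold change 3.29 with SE 0.27, adjusted p = 1.02e-06 by edgeR), and 45 of the tested genes had a higher value. The gain stayed small in absolute terms, since Snrpn per kilobase measured 2.66 CPM in F7 and 0.279 CPM in control.

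No other member of that domain was called. Gm38393, a gene model that overlaps Snrpn on the same strand, had 88 reads in F7 and 18 in control (log2 fold change 2.99 with SE 0.40, adjusted p = 7.57e-05 by edgeR), and reads of the 2 may be shared. Like Snrpn, it passed the filter through F7 alone and so had to differ. Ube3a, an E3 ubiquitin ligase gene, measured 148, 131, 142 and 161 CPM in F7, against 157, 128, 134, 158 and 167 CPM in control (log2 fold change -0.03, edgeR adjusted p = 0.794). Snhg14, the long transcript antisense to Ube3a, averaged 3.11 ± 0.985 CPM in F7 and 3.25 ± 1.73 CPM in control (log2 fold change -0.01, edgeR adjusted p = 0.985). Ndn and Magel2, paternally expressed genes of the same region, had no read in any library, and Peg12 had 1 read in F7 and 2 in control. Gm7367, also between the members, was higher by 0.35 (edgeR adjusted p = 0.0244).

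In the Kcnq1 domain, beyond Igf2 on chromosome 7, the growth restrainer Cdkn1c rose. This gene encodes the CDK inhibitor p57 and is maternally expressed (ENSMUSG00000037664.13; 143458339 to 143461050, minus strand). Cdkn1c measured 3.44, 2.83, 2.86 and 2.14 CPM in F7, against 1.63, 1.04, 0.830, 1.02 and 1.10 CPM in control. All F7 libraries lay above all controls, at levels of only 10 to 47 reads a library (log2 fold change 1.32 with SE 0.25, adjusted p = 0.00133 by edgeR). The call was lost when replicates 3 and 4 alone stood for F7 (edgeR adjusted p = 0.0643).

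Kcnq1ot1, the paternally expressed noncoding RNA that silences this domain in cis, was not called. It measured 51.7, 67.0, 43.4 and 46.95 CPM in F7, against 101, 74.5, 39.3, 82.7 and 55.8 CPM in control (log2 fold change -0.43 with SE 0.27, adjusted p = 0.241 by edgeR). Control replicates 3 and 5, which lay nearest to F7 on the first component, were the 2 lowest controls. Without control replicate 3 the fall passed (-0.58, edgeR adjusted p = 0.0418), and without both it reached -0.71 (edgeR adjusted p = 0.00703). Leaving out the lowest controls lowers the fitted value by itself, so these runs cannot show that Kcnq1ot1 fell. In 19 of 21 other settings it stayed uncalled. Nap1l4, a histone chaperone gene, measured 118, 115, 117 and 116 CPM in F7, against 116, 122, 129, 118 and 116 CPM in control (log2 fold change -0.05, edgeR adjusted p = 0.506). Phlda2, Slc22a18, Ascl2 and Kcnq1 had at most 3 reads each over all libraries. The genes between them that are not on the list, Cd81 (-0.02), Tssc4 (0.08), Trpm5 (0.18) and R74862 (-0.15), were not called.

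All 3 genes of the Peg3 domain at the other end of chromosome 7 fell. Zim1, a maternally expressed zinc finger gene, measured 46.6, 53.7, 63.2 and 70.4 CPM in F7, against 154, 167, 94.8, 121 and 96.2 CPM in control, with no overlap (log2 fold change -1.13 with SE 0.20, adjusted p = 0.00236 by edgeR). Peg3, a paternally expressed zinc finger gene with roles in growth and maternal behaviour, was the most abundant member. Its level was 1693, 1720, 1872 and 2185 CPM in F7, against 2681, 2484, 2069, 2446 and 2728 CPM in control (log2 fold change -0.41 with SE 0.11, adjusted p = 0.00891 by edgeR), and the groups overlapped at 1 library each. Usp29, a deubiquitinase gene whose start lies 146 bases from that of Peg3, measured 13.7, 13.8, 17.3 and 17.3 CPM in F7, against 22.3, 19.8, 23.0, 20.7 and 19.7 CPM in control (log2 fold change -0.46 with SE 0.10, adjusted p = 0.00340 by edgeR).

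Within F7 these 3 genes were lower in replicates 1 and 2 than in replicates 3 and 4. With replicates 3 and 4 alone, Zim1 kept its call, whereas Peg3 (edgeR adjusted p = 0.174) and Usp29 (0.132) did not. None of 3 other tested genes within 250 kb was called, with a median log2 fold change of 0.01.

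Another pair of neighbours with facing starts was not called. Peg10, a retrotransposon-derived gene needed in the placenta, and Sgce, which encodes epsilon-sarcoglycan, start 98 bases apart on chromosome 6, and both are paternally expressed. Peg10 measured 510, 547, 514 and 593 CPM in F7, against 520, 520, 440, 631 and 740 CPM in control (log2 fold change -0.08 with SE 0.13, adjusted p = 0.673 by edgeR). Sgce measured 31.4, 28.9, 42.5 and 42.5 CPM in F7, against 41.5, 44.8, 42.7, 38.6 and 33.6 CPM in control (log2 fold change -0.17 with SE 0.12, adjusted p = 0.306 by edgeR). Sgce was lower in F7 replicates 1 and 2 alone (edgeR adjusted p = 0.0234) but not in replicates 3 and 4, where its value was 0.08. Whether this pair differed from the Peg3 domain was not tested.

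Further along chromosome 6, Asb4, maternally expressed, had 14 reads in F7 and 1 in control, a ratio of 24.0 after scaling (95% exact interval 3.65 to 1014, counting error only). Its reads were too few to pass the main filter. Ppp1r9a had 2 reads in F7 and 5 in control. Of the genes between them, Pon2, a paraoxonase, was higher by 0.26 (edgeR adjusted p = 0.0339) and Pon3 was not called (-0.14).

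Mest, a paternally expressed hydrolase gene of embryonic mesoderm, was low in both groups and lower in F7. It had 17, 9, 3 and 8 reads in F7, against 44, 42, 18, 31 and 20 reads in control (log2 fold change -1.29 with SE 0.33, adjusted p = 0.00849 by edgeR), and the CPM values did not overlap. Copg2, a coatomer subunit gene that overlaps the end of Mest on the opposite strand, measured 51.5, 50.4, 63.0 and 60.1 CPM in F7, against 87.5, 86.2, 78.0, 70.0 and 70.8 CPM in control (log2 fold change -0.49 with SE 0.09, adjusted p = 0.00120 by edgeR). With F7 replicates 3 and 4 alone both calls were lost (edgeR adjusted p = 0.0810 for Mest and 0.0551 for Copg2). Among its neighbours, Cep41, a centrosomal protein gene, fell (-0.53).

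Grb10, which encodes an adaptor that dampens insulin and IGF receptor signalling, measured 313, 318, 272 and 274 CPM in F7, against 343, 323, 332, 382 and 436 CPM in control (chromosome 11; log2 fold change -0.30 with SE 0.09, adjusted p = 0.0223 by edgeR). The groups did not overlap but nearly touched. The call was lost without control replicate 4, without F7 replicate 3 or without F7 replicate 4 (edgeR adjusted p = 0.0507, 0.0694 and 0.0692) and with the replicate block (0.0692). Its neighbour Cobl, an actin nucleator gene also reported as imprinted, fell further, to 59.4 ± 2.32 CPM in F7, against 124 ± 10.4 CPM in control (SD, n = 4 and 5; log2 fold change -1.06, edgeR adjusted p = 2.00e-07).

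Impact and Gnas rose by less than 2-fold, each without overlap. Impact, a paternally expressed inhibitor of the kinase GCN2 on chromosome 18, measured 31.4, 31.6, 35.0 and 32.9 CPM in F7, against 19.1, 21.6, 14.4, 19.04 and 18.1 CPM in control (log2 fold change 0.82 with SE 0.10, adjusted p = 4.67e-05 by edgeR). None of its 4 tested neighbours rose and 1, Ttc39c, fell (-0.38). Gnas, the locus of the stimulatory G protein alpha subunit (chromosome 2, 174284320 to 174346744), measured 59.6, 60.7, 62.0 and 59.2 CPM in F7, against 37.9, 35.2, 40.0, 36.5 and 33.6 CPM in control (log2 fold change 0.72 with SE 0.07, adjusted p = 3.03e-06 by edgeR).

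Gnas rose together with its surroundings. Of 6 neighbours 4 rose, with values of 1.64 for the cathepsin gene Ctsz, 0.90 for Atp5e, 0.67 for Nelfcd and 0.45 for Stx16. Among the 91 tested genes from 250 kb before Gnas to the end of the chromosome, 65 were higher, none was lower and the median log2 fold change was 0.61. Over all 1163 tested genes of chromosome 2, 249 were higher and 136 lower, with a median of 0.04. The antisense RNA Nespas, paternally expressed, measured 2.41, 4.20, 3.19 and 1.99 CPM in F7, against 4.58, 3.11, 2.66, 3.9 and 3.12 CPM in control (log2 fold change -0.22, edgeR adjusted p = 0.496). Gnas has maternally, paternally and biallelically expressed transcripts, which counts per gene add together.

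Over all domains, 84 other tested genes lay within 250 kb of a member, of which 20 were higher and 15 lower (41.7%, against 35.3% of all tested genes), with a median log2 fold change of 0.03. They are not a set free of imprinted genes, since Cobl, Pon2, Pon3, Tssc4, Cd81 and Osbpl5 are also reported as imprinted. Gm38393, which passed the filter through F7 alone and may share reads with Snrpn, is counted as well.

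**Figure D3:**
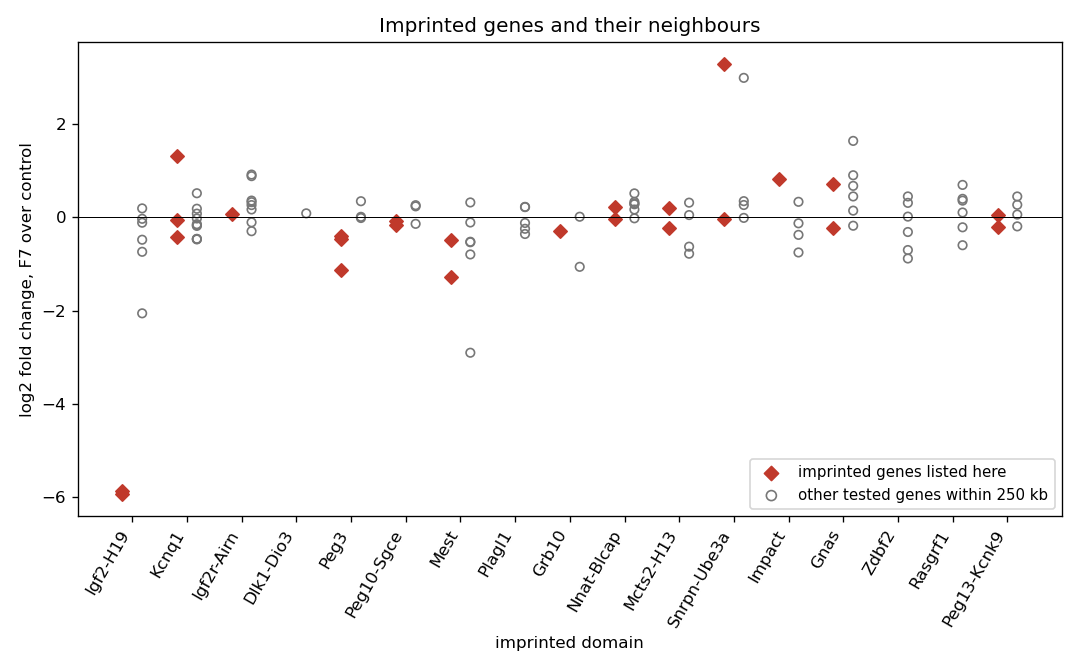
Log2 fold change of F7 over control for the tested imprinted genes (red diamonds) and for other tested genes within 250 kb (open circles), by domain. The Igf2-H19 genes (near -6) lie below all 6 of their neighbours, whereas Gnas (0.72) lies within the range of its neighbours (up to 1.64).

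In the Nnat-Blcap and Mcts2-H13 domains, also on chromosome 2, the fitted changes lay between -0.23 and 0.23. Blcap, a cell cycle inhibitor gene, measured 39.0, 37.9, 35.0 and 39.9 CPM in F7, against 32.2, 29.2, 34.4, 33.6 and 33.2 CPM in control (log2 fold change 0.23 with SE 0.07, adjusted p = 0.0280 by edgeR), and the call was lost in 11 of 21 other settings, among them each run without control replicate 1 or 2 or without F7 replicate 1, 2 or 4. Nnat, a paternally expressed proteolipid gene inside Blcap, measured 4.02, 4.80, 1.51 and 2.45 CPM in F7, against 3.44, 4.74, 2.41, 4.18 and 2.61 CPM in control (log2 fold change -0.03, edgeR adjusted p = 0.944). The difference of its log2 CPM from control was 0.34 for F7 replicates 1 and 2 and -0.67 for replicates 3 and 4.

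H13, a signal peptide peptidase gene, measured 71.3, 73.9, 85.0 and 80.9 CPM in F7, against 87.1, 91.7, 87.3, 96.6 and 93.0 CPM in control (log2 fold change -0.23 with SE 0.07, adjusted p = 0.0153 by edgeR), a call lost without F7 replicate 1 or 2 (edgeR adjusted p = 0.0715 and 0.0592). Mcts2, a paternally expressed retrogene inside H13 on the same strand, measured 9.51, 8.83, 10.9 and 11.0 CPM in F7, against 7.18, 8.52, 9.05, 10.1 and 8.68 CPM in control (log2 fold change 0.20, edgeR adjusted p = 0.233). Reads of this pair can overlap. Gm26841, opposite H13, was not called (-0.63).

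Igf2r, the maternally expressed receptor that clears IGF2, was not called. It measured 157, 168, 158 and 165 CPM in F7, against 170, 172, 140, 134 and 154 CPM in control (chromosome 17; log2 fold change 0.07 with SE 0.08, adjusted p = 0.506 by edgeR), and the F7 values lay inside the control range. Airn, the paternally expressed RNA antisense to Igf2r, had 1 read in F7 and 2 in control, and Gm7162 within it was not called (0.36). On chromosome 15, the noncoding Peg13 measured 57.7, 60.7, 61.3 and 64.4 CPM in F7, against 61.2, 62.9, 52.8, 58.7 and 57.8 CPM in control (log2 fold change 0.05, edgeR adjusted p = 0.554). Trappc9, the trafficking gene whose body holds Peg13 on the same strand, measured 48.4, 53.1, 60.2 and 50.5 CPM in F7, against 65.0, 70.2, 60.4, 53.1 and 57.0 CPM in control (log2 fold change -0.21, edgeR adjusted p = 0.0809), which passed without control replicate 4 or F7 replicate 3 (0.0440 and 0.0424). Gm3150, opposite Trappc9, was higher by 0.45, and the channel gene Kcnk9 had no read.

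Across 6 domains with enough reads of both partners, the log2 ratio of the maternally to the paternally expressed partner was set out by library, as a description. The partners are named by textbook assignment. Ube3a is imprinted in neurons and Gnas adds several kinds of transcript, so their ratios need not be maternal to paternal in these cells. For Cdkn1c over Kcnq1ot1 it was -4.54 to -3.89 in F7 and -6.28 to -5.50 in control. The ratio of Ube3a to Snrpn was 4.22 to 5.31 in F7 and 7.27 to 8.64 in control, and that of H13 to Mcts2 was 2.87 to 3.06 in F7 and 3.25 to 3.60 in control. Zim1 over Peg3 lay at -5.18 to -4.89 in F7 and -4.83 to -3.90 in control. These 4 ratios did not overlap between groups, whereas Copg2 over Mest and Gnas over Nespas did. Zim1 over Peg3 nearly touched. Ube3a over Snrpn follows Snrpn, which passed the filter through F7 alone and so had to differ. How often ratios of other gene pairs separate was not tested, so the count is a description only.

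**Figure D4:**
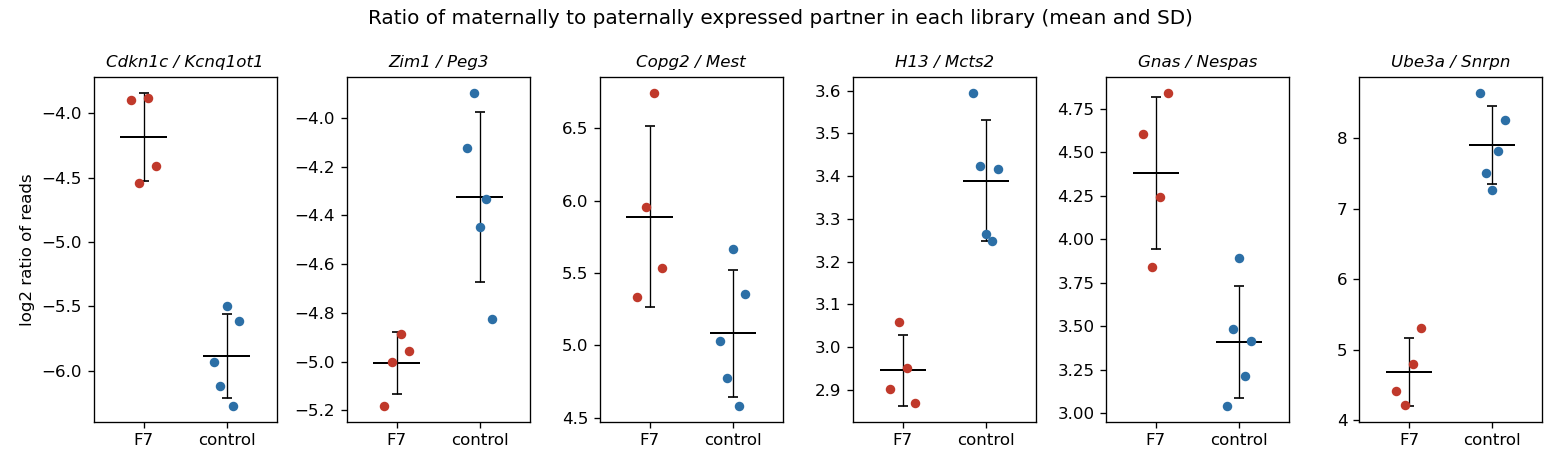
Log2 ratio of reads of the maternally to the paternally expressed partner, by textbook assignment, of 6 domains in each library. F7 (red) lies left of control (blue), with the mean as a line and the SD as a bar. Axes do not start at 0. The ratio of Cdkn1c to Kcnq1ot1 is higher in all F7 libraries (-4.54 to -3.89) than in all controls (-6.28 to -5.50), and that of Ube3a to Snrpn is lower.

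A large part of the list was silent in both groups. Of the 22 genes that were not tested, 8 had no read in any library, 10 had 1 to 5 and 4 had more, up to 15 for Asb4. A count of 0 over a group allows a level of up to 0.0780 CPM in F7 and 0.0468 CPM in control. The whole Dlk1-Dio3 domain of chromosome 12 was nearly empty, its 6 genes together having 5 reads in F7 and 8 in control: Dlk1, a Notch-related growth regulator, had 1 read in F7 and 3 in control, Rtl1 had 2 in F7 and 4 in control, Rian had 1 in each, Mirg had 1 in F7 and 0 in control, and Meg3 and Dio3 had none. The growth arrest gene Plagl1 had 0 reads in F7 and 3 in control and Sfmbt2 had 0 in F7 and 1 in control, and Zdbf2 and Rasgrf1 had none.

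The listed genes that keep imprints, or act on methylation as the Tet genes do, were mostly expressed. Of 28 listed, 24 were tested, of which 1 rose and 9 fell, with a median log2 fold change of -0.14. Among all tested genes 17.4% were higher and 17.9% lower. The share called in either direction was 41.7%, near the 35.3% of all tested genes, but most of the called ones fell. The 4 with the smallest adjusted p all fell. The chromatin remodeller gene Hells averaged 130 ± 11.2 CPM in F7 and 198 ± 12.0 CPM in control (SD, n = 4 and 5; log2 fold change -0.61). The cohesin subunit gene Smc3 averaged 174 ± 4.35 CPM in F7 and 251 ± 16.2 CPM in control (-0.53). Setdb1, a histone methyltransferase gene, fell by 0.37 on the log2 scale, and Tet3, a methylcytosine dioxygenase gene, fell by 0.46. Ctcf, whose protein binds the region between Igf2 and H19 on the unmethylated copy and is named here after its value was seen, fell to 120 ± 8.54 CPM in F7, against 150 ± 8.41 CPM in control (-0.33, edgeR adjusted p = 0.00197). Dnmt1 (-0.05), Uhrf1 (0.05), Zfp57 (0.25) and Trim28 (-0.02), named after their values were seen, were among the 14 tested that were not called. Dnmt3b (-0.59, edgeR adjusted p = 0.0304), Dnmt3a (-0.24, 0.0445) and Tet2 (-0.53, 0.00964) were also among the 9 that fell. The 1 that rose was Suz12 (0.19). Dppa3, Ctcfl and Dnmt3l, known from germ cells and early embryos, had at most 1 read.

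Among 16 partners of IGF2, 10 were tested, 3 rose and 5 fell, against 17.4% higher and 17.9% lower among all tested genes. Igf1, the other ligand of the IGF1 receptor, averaged 8.397 ± 2.70 CPM in F7 and 42.4 ± 7.86 CPM in control (SD, n = 4 and 5; log2 fold change -2.42, edgeR adjusted p = 5.63e-06). The insulin and IGF receptor adaptor Irs2 fell by 1.12 on the log2 scale. Igf2bp2, which encodes an mRNA-binding protein, rose (2.93), with 47 reads in F7 and 10 in control. Igfbp6, which encodes an IGF-binding protein, also rose (1.40), with 37 reads in F7 and 24 in control. Igf2bp2 and Igfbp6 passed the filter through F7 alone and so had to differ. The count of 3 that rose can therefore not be read against the 17.4%. Igf1r itself was not called (0.12).

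Of 35 further genes reported as imprinted in mouse that had a row, 16 were tested, 3 rose and 5 fell, with a median log2 fold change of -0.16. Called genes were 8 of the 16, against 35.3% of all tested genes. The 4 with the smallest adjusted p were Cobl, Gab1, Dhcr7 and Dcn. Gab1, a signalling adaptor gene, averaged 66.2 ± 6.69 CPM in F7 and 124 ± 13.2 CPM in control (SD, n = 4 and 5; log2 fold change -0.91). Dhcr7, a sterol reductase gene, averaged 69.1 ± 3.73 CPM in F7 and 49.9 ± 2.18 CPM in control (0.47). Dcn, which encodes decorin, had 1 read in F7 and 117 in control and passed the filter through the control libraries alone. It so had to differ, and it is counted among the 8.

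In the authors' deposited table the 25 tested genes had the same calls as here, 5 higher and 9 lower, with -5.93 for Igf2, 3.41 for Snrpn, 1.53 for Cdkn1c and -0.35 for Peg3. That table also calls Asb4 higher. It gives Zdbf2 a log2 fold change of 1.21, although Zdbf2 had no read in the 9 libraries used here. The authors' fit therefore seems to include a library not used here, so its values are not from the same set of libraries. Whether it was the left-out F7 column was not tested.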

How the data were processed

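Reads lie on mm10 and were counted by featureCounts, with DESeq2 1.18.1 under R 3.4.3, per the submitters' processing notes. Aligner, annotation and strand setting: not given in the sources used here. Raw counts per gene symbol, as deposited, entered every test. The authors' normalized table, a signal equal to counts over a constant per library, served only to check this. Log2 fold changes and p-values of the authors' deposited comparison are named as such. A further column of the F7 clone, 1 per table, matches no sample and was left out. Columns were mapped through clone name and replicate number.

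Tests used edgeR 4.0.16 in R 4.3.3 (robust quasi-likelihood, TMM, group only) after filterByExpr (minimum count 10, total 15) left 14730 genes, over which p was adjusted by Benjamini-Hochberg and called under 0.05. SE is the log2 fold change over the square root of F. The script was tested on simulated data. CPM are scaled by total and TMM factor. Positions come from GENCODE on mm10, by symbol.

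Members and lists were chosen with earlier results of these data known. Members averaging 1 CPM or called are given by library, others by reads. Of the 3 lists of related genes, the 4 smallest adjusted p are named, and of neighbours those called at 2-fold or more or lying between members, except 1 that is not reported here. Further neighbours and keepers of imprints, Ctcf among them, were named after their values were seen. Marker lists are given as sums. Other settings were RLE or upper-quartile scaling, no filter, 1 CPM in 4 libraries, DESeq2 1.42.0, limma 3.58.1 voom, a replicate block, libraries left out, an adjusted p under 0.01 and a test against a fold of 2.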

Additional observations from a re-analysis of the deposited data

How the results depend on the processing

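Of the 25 tested imprinted genes, 7 kept their direction and call in each of 21 other settings, among them 3 of the 14 called genes: Igf2 (log2 fold change -6.22 to -5.62), Igf2os (-6.49 to -5.11) and Snrpn (2.91 to 3.55). Igf2os and Snrpn passed the main filter through 1 group alone and so had to differ, and Igf2os may share reads with Igf2. Their stability is therefore no separate support. The list was called 5 higher and 9 lower. When replicates 3 and 4 alone stood for F7 it was 3 higher and 4 lower, and in a test against a fold of 2 it was 1 and 2; the cause of the first was not tested, and the second asks for a larger change. With replicates 3 and 4 alone, all genes gave 988 higher and 1172 lower calls, imprint keepers 0 and 5, other imprinted genes 1 and 3, neighbours 12 and 5, and 2 partners of IGF2 were lower. At an adjusted p under 0.01 all genes gave 1363 and 1531, neighbours 13 and 8, keepers 0 higher, IGF2 partners 2 lower and other imprinted genes 1 higher. Against a fold of 2 all genes gave 159 and 206, keepers 0 and 0, IGF2 partners 1 and 1, other imprinted genes 0 and 1 and neighbours 2 and 1. Keepers called higher were 0 without the filter and with F7 replicates 1 and 2 alone, where 3 IGF2 partners were lower. Without the filter, 5 imprinted genes were still called higher although Blcap lost its call (edgeR adjusted p = 0.0690). Those 5 therefore included a gene that was not tested in the main fit.

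Replicate numbers did not pair the libraries throughout. For replicates 1, 2 and 4, same-numbered libraries' deviations correlated less (-0.08, 0.06 and -0.05) than the best other-numbered pair (0.18, 0.20 and 0.10). For replicate 3 they correlated more (0.20, against 0.04). The replicate block gave 4 higher and 8 lower among the imprinted genes, 3 IGF2 partners lower, and turned Peg10 to 0.0453 and Ube3a to 0.0148. Leaving out 1 library at a time gave 4 to 5 higher and 8 to 10 lower imprinted genes, 2 to 5 IGF2 partners lower, 0 to 1 keepers higher and 6 to 11 lower, 13 to 23 neighbours higher and 8 to 18 lower, 2 to 3 other imprinted genes higher, and 1709 to 2867 genes higher and 1834 to 3005 lower over all. The lowest neighbour counts, 13 and 8, came without F7 replicate 1. Uncalled genes crossed 0 there: Nnat ranged from -0.28 to 0.16, Peg10 from -0.16 to 0.0288 and Ube3a from -0.0916 to 0.0188. Nnat was 0.35 with F7 replicates 1 and 2 alone, Sgce 0.0839 and Ube3a 0.0311 with replicates 3 and 4 alone, and Peg13 -0.0032 without control replicates 3 and 5. The causes were not tested. Depth limits genes with few reads in a group, such as Mest, with 37 in F7, and Snrpn, with 38 in control.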
